A study of Mus musculus with 12 samples.

Results

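The second part of the macrophage response to lipopolysaccharide (LPS) was followed by comparing open chromatin at 2 h and at 6 h in wild-type (WT) cells. The comparison rests on 4 of the 12 libraries of the series, 2 at each time. Their peaks were chained into 102506 regions wherever peaks overlapped by at least 1 bp. A region was counted as gained when both libraries at 6 h and neither at 2 h called it, and as lost in the reverse case. By this rule 8247 regions were gained and 2639 were lost.

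Macrophages were grown from bone marrow of female C57BL/6 mice for 9 days with 20% L929 macrophage growth supplement, and 100 ng/ml LPS was added for 2 or 6 h. Accessibility was measured by ATAC-seq on 50000 cells per reaction: Tn5, a transposase, inserts sequencing adapters where DNA is not covered by nucleosomes or other proteins. WT cells without LPS (0 h, 2 libraries) and cells with a knockout of lincRNA-EPS, a long noncoding RNA (KO, 2 libraries at each of 0, 2 and 6 h), from the same strain and culture, served as further readouts that the rule did not use. Whether the replicates were independent mice or cultures is not stated in the labels, so p-values measure the spread between libraries, which may be technical. The labels place the earlier libraries at 2 h, but the peak names inside those lists give 1 h in both WT and KO, so the interval described may run from 1 h to 6 h. The identity of the cells as macrophages was not checked against marker genes, because gene positions in the mm9 build of the files were not used here, and for the same reason regions are given by position alone.

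LPS is a component of the bacterial outer membrane that macrophages sense through the receptor TLR4. Signalling from TLR4 activates NF-kB, AP-1 and interferon regulatory factors within the first hour or so, and secreted interferon and newly made transcription factors then drive a later set of genes. Lineage factors such as PU.1 and C/EBP proteins hold many macrophage enhancers open before stimulation, while other enhancers become accessible after it. lincRNA-EPS is known as a repressor of immune response genes in resting macrophages.

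Peak numbers were higher at 6 h. The libraries at 2 h held 77100 and 70387 peaks (mean 73743.5 ± 4747, SD, n = 2), and those at 6 h held 81749 and 85169 (83459 ± 2418). The values did not overlap, and the difference was 9715.5 peaks. The exact two-sided permutation p was 0.333, the smallest that 2 libraries against 2 can give, so the design could not reach significance. Covered sequence rose from a mean of 39.2 Mb to 42.6 Mb. As a measure of depth, the background coverage recovered from the deposited values was 3.035 and 2.32 reads in the earlier libraries, against 2.67 and 2.182 reads in the later ones, so the deeper library had more peaks at 2 h and fewer at 6 h. The part of depth in the difference was not tested beyond thinning. After each list was thinned to the lowest of these 4 values the difference was 10235.5 peaks, and without WT 2 h replicate 2 it was 6359. In KO the difference was 11652 peaks, between 73536 ± 1168 at 2 h and 85188 ± 9082 at 6 h (n = 2 each, exact permutation p = 0.333).

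Of the 102506 regions, 55824 (54.5%) were called in all 4 WT libraries. The 8247 gained regions were 8.05% of all regions and the 2639 lost regions 2.57%, shares that the rule itself fixes. Gained regions thus made up 75.8% of those that changed, 76.9% in thinned lists and 54.7% when each list was cut to its top 70387 peaks, a setting in which any added peak displaces another. With equal lists the counts were 5361 gained and 4441 lost. Thinned lists gave 8367 gained and 2517 lost, and held 97.0% of the gained and 92.5% of the lost regions of the deposited lists. With 1 library of a time left out, the call or the absence at that time is needed in 1 list and no longer in 2, so the counts rose. Dropping replicate 1 of 2 h left 12772 gained and 5001 lost regions, and dropping replicate 2 of that time left 10241 gained and 7928 lost. Dropping replicate 1 of 6 h left 15836 gained and 4569 lost, and dropping replicate 2 of 6 h left 13922 gained and 5211 lost. Gained regions were the larger class under each of these settings.

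Most members were weak peaks. Peak strength was described by the percentile of −log10 q within each list, where 100 is the strongest peak, and by the authors' fold of summit coverage over local background. Gained regions had a median percentile of 26.3 (quartiles 16.6 and 40.1) over the libraries at 6 h and a median fold of 4.99. Lost regions had a median percentile of 19.1 (quartiles 12.3 and 28.0) over the libraries at 2 h and a median fold of 4.49. Median summit coverage was close, at 21 reads for gained regions at 6 h and 22 reads for lost regions at 2 h. Regions called in all 4 libraries stood at a median percentile of 64.9 at 6 h and 61.3 at 2 h. A mean percentile over 50 was reached by 1149 gained regions (13.9%) and by 47 lost regions (1.78%). Median widths were 388 bp for gained, 350 bp for lost and 648 bp for regions called in all 4.

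Just outside the rule lay regions that missed it by the call of 1 library. A single call at 6 h and none at 2 h was found for 12852 regions, with a median percentile of 12.3 and a width of 246 bp. Both calls at 6 h with a single one at 2 h were found for 6432 regions, at a median percentile of 29.9. On the other side, 7392 regions were called in 1 library at 2 h and in neither at 6 h (median percentile 10.5), and 4440 in both at 2 h and 1 at 6 h (24.3). A region that is not called can still be open below the calling limit, which was a summit of 10 to 12 reads at the lowest background in these 4 libraries.

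**Figure D1:**
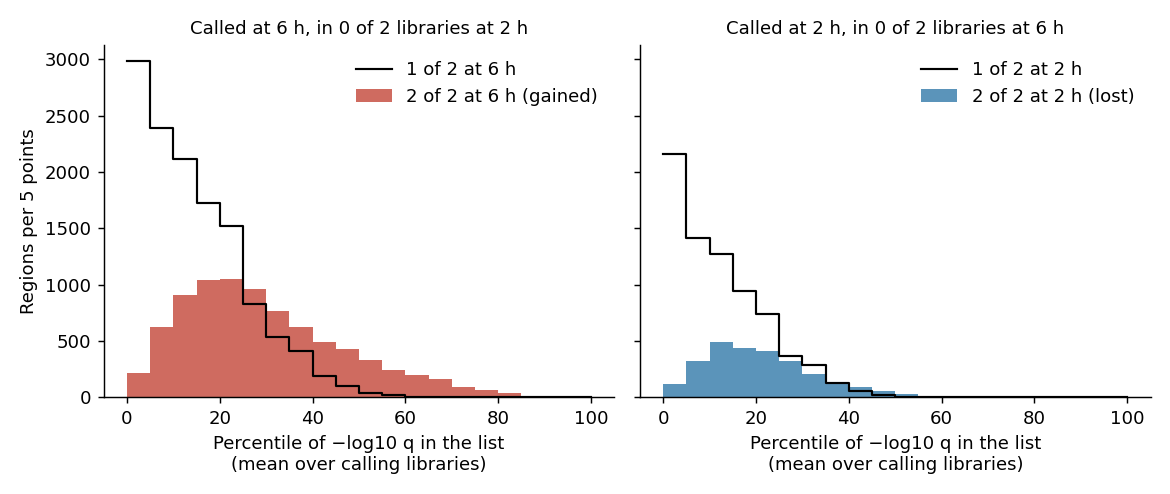
Number of regions by the mean percentile of −log10 q over the libraries that called them, in steps of 5 points, for regions called only at 6 h (left) or only at 2 h (right). Filled bars are regions called in both libraries of the time and lines those called in 1 of them. Gained regions (median 26.3) reach percentiles above 90, while lost regions (median 19.1) end at 66.8.

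The strongest gained regions had summits well above the calling limit at 6 h, and some of them were already called at 2 h in KO. The 10 with the highest mean percentile stood between 90.4 and 96.5, with mean folds of 9.58 to 16.1 and widths of 602 to 915 bp. None of the 10 was called in either WT library at 0 h, 2 of them were called in 1 KO library at 0 h, and all 10 were called in both KO libraries at 6 h. At 2 h, both KO libraries called 3 of them, 1 KO library called 3, and neither called 4.

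The first, chr18:11886284-11887067 (mm9), had folds of 15.1 and 14.8 and summits of 91 and 88 reads in the libraries at 6 h. Neither KO library called it at 2 h, and those at 6 h gave folds of 14.6 and 15.2, so it was called at 6 h in 4 of 4 libraries and at 2 h in 0 of 4. The next, chr14:58102886-58103487, had folds of 15.0 and 17.1 and summits of 80 and 83 reads. Both KO libraries already called this one at 2 h, with folds of 6.86 and 5.19. The region chr2:84351362-84352276 had folds of 13.6 and 15.8. KO libraries called it at 2 h as well, at folds of 5.54 and 3.96, so for both of these the absence at 2 h was seen in WT and not in KO.

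Further down, chr14:15613590-15614320 had folds of 12.8 and 15.7 and was called at 2 h in 1 KO library. The same held for chr1:167857604-167858474, with a mean fold of 11.1, and for chr5:99803425-99804130, with folds of 8.6 and 10.6 and summits of 91 and 108 reads. The region chr11:95919540-95920247, with folds of 14.9 and 14.4, was called at 2 h in both KO libraries. The remaining 3 were called in neither KO library at 2 h. These were chr5:68024740-68025615 with folds of 12.3 and 13.2, chr13:5822385-5823001 with 12.1 and 11.3, and chrX:159758227-159758913 with 10.5 and 13.1.

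Regions of the same kind followed closely. Of the next regions that were not called in WT at rest, chr16:21509886-21510782 had folds of 13.2 and 15.2 and chr11:45780259-45780957 had 12.5 and 12.3. Neither was called at 2 h in KO, and both were called there at 6 h in 2 of 2 libraries. The region chr7:95616874-95617676, had folds of 12.1 and 13.1 and was called in both KO libraries at 2 h. Of gained regions with the same calls in KO, chr11:94833172-94833774, chr11:64311802-64312410 and chr4:63596138-63596976 came next, with folds of 10.7 and 13.8, 8.43 and 8.22, and 10.2 and 13.9 in turn.

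Lost regions were weaker by percentile and fold, and the strongest of them had been called at rest. The 10 strongest stood at mean percentiles of 57.1 to 66.8 at 2 h, with mean folds from 5.18 upward and widths of 382 to 651 bp. All 10 were called in both WT libraries at 0 h and in both KO libraries at 2 h. At 6 h, both KO libraries called 3 of them, 1 KO library called 6, and neither called 1.

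The strongest lost region, chr2:6628350-6628851, had folds of 8.14 and 5.87 at 2 h and of 7.28 and 8.11 at 0 h. KO libraries at 2 h gave it 7.09 and 6.68, and 1 of the 2 at 6 h called it, with a fold of 4.77. At chr17:25639562-25640014 the folds were 10.6 and 9.34 at 2 h and 8.38 and 6.84 at 0 h, and it was the 1 region of the 10 that neither KO library called at 6 h. The region chr13:99737788-99738438 stood at percentiles of 58.9 and 68.5 at 2 h but was still called in both KO libraries at 6 h, with folds of 4.83 and 5.99.

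For chr15:35357506-35357964, with folds of 9.91 and 9.12 at 2 h, and for chrX:11529256-11529693, with 9.17 and 9.04, both KO libraries at 6 h also called the region. The other 5 of the 10 were chr9:58117128-58117524, chr17:47736958-47737339, chr9:53870571-53871032, chr2:35305218-35305615 and chr3:101301578-101302151, each called in 1 KO library at 6 h. Lost regions with the same calls in KO were led, after chr17:25639562-25640014, by chr3:126353269-126353678 (folds 8.61 and 5.8 at 2 h), chr15:73322597-73323029 (6.25 and 6.17) and chr13:22093158-22093625 (4.74 and 4.67). All 3 were called in both WT libraries at rest.

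The calls at rest, which the rule did not use, separated gained from lost regions. Neither WT library at 0 h called 6919 of the gained regions (83.9%), 1 called 1081 (13.1%) and both called 247 (3.0%). Among lost regions the numbers were 784 (29.7%), 902 (34.2%) and 953 (36.1%). For comparison, both libraries at rest called 55.1% of all regions and 89.6% of those called in all 4 libraries at 2 and 6 h. So the gained class consisted mainly of regions not called before LPS. Neither library at rest called 29.7% of lost regions and 31.2% of all regions, so lost regions were close to the whole set in this share and lay below it in the share called by both. Leaving out 1 library at rest moved the share of lost regions called in every remaining library at rest to 53.7% and 52.7%, and doing so for replicate 1 or replicate 2 of 2 h moved it to 23.0% and 17.4%.

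Strength went with the call at rest among lost regions. Those called in both libraries at 0 h had a median percentile of 26.4 at 2 h, and those called in neither had 14.4. When lost regions were divided by percentile into 5 groups of about equal size (quintiles), 68.8% of the strongest quintile and 15.7% of the weakest were called in both libraries at rest. Gained regions showed no such gradient, with 2.48% to 3.58% called in both libraries at rest in every quintile.

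With rest included, 4 courses in WT could be told apart. Regions opened late (0 of 2, 0 of 2 and 2 of 2 libraries at 0, 2 and 6 h) numbered 6919. Regions closed late (2, 2 and 0) numbered 953, transient regions called only at 2 h (0, 2 and 0) numbered 784, and regions called again at 6 h after being missed at 2 h (2, 0 and 2) numbered 247.

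The KO libraries, which share no sample with the WT comparison, gave each course a separate reading. The KO lists named here hold only regions with a WT peak at 2 h or 6 h, and other KO peaks are left out. Late opening was found in KO at 6779 of the same 102506 regions (6.61%) and at 3380 of the 6919 WT regions (48.9%), which was 49.9% of the KO list. Late closing was found in KO at 339 regions (0.331%) and at 92 of the 953 WT regions (9.65%). The transient course was found in KO at 728 regions (0.71%) and at 60 of the 784 WT regions (7.65%), or 8.24% of the KO list. Calls in KO at the WT transient regions were 23.3% and 8.42% at 0 h, 45.8% and 47.8% at 2 h, and 38.6% and 19.8% at 6 h. Of all regions, these libraries called 60.2% and 51.1% at 0 h, 67.0% and 68.4% at 2 h, and 81.6% and 71.5% at 6 h. Transient regions were thus called less often than regions in general at every time, 2 h included, and KO 6 h replicate 1 lay close to the libraries at 2 h.

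KO followed the fourth course at 114 regions (0.111%) and at 0 of the 247 WT regions. By counting error alone 0 of 247 allows a share of up to 1.21% (3 regions), well above the share over all regions, so these numbers cannot show whether the course recurred. KO libraries called 51.0% and 56.3% of these 247 at 2 h. The strongest 3 in WT were chr3:68497300-68498066, with folds of 7.99 and 8.5 at 6 h and 3.47 and 3.59 at rest, chr11:64209762-64210350, with 10.3 and 15.3 against 4.18 and 4.28, and chr4:102257198-102257774, with 6.83 and 6.41 against 3.93 and 3.24. All 3 were called in both KO libraries at 6 h and in neither at 0 h.

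Among transient regions, the strongest was chr9:119077750-119078158, with folds of 7.68 and 6.93 at 2 h. It was called in 1 KO library at 2 h and in 1 at 6 h. The next, chr5:143674393-143674767, had folds of 3.35 and 5.17 and followed the same course in KO, where the libraries at 2 h gave 4.1 and 3.43. The region chr2:173502478-173502797, with folds of 5.56 and 5.8, was called in both KO libraries at 2 h and in 1 at 6 h.

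Over the whole set, gained regions were mostly called in KO at the later time. KO libraries called 16.1% and 18.2% of the gained regions at 2 h and 85.5% and 70.4% at 6 h, a difference of 60.8 percentage points (n = 2 each, exact two-sided permutation p = 0.333, the smallest possible). The KO libraries at 6 h called 81.6% and 71.5% of all regions, and those at 2 h 67.0% and 68.4%, so the gained regions stood far below the whole set at 2 h and close to it at 6 h. At rest, WT libraries called 9.74% and 9.36% of gained regions and KO libraries 9.64% and 4.1%. In KO, 90.3% of the gained regions were called in at least 1 library at 6 h, and 9.74% (803) in neither. No KO library at 2 h or 6 h called 7.99% of the gained regions and 10.6% of all regions, so these shares lay close together.

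Lost regions differed less between the times in KO. There the libraries called 63.4% and 66.2% of them at 2 h and 48.7% and 25.8% at 6 h. The difference was −27.5 percentage points (exact two-sided permutation p = 0.333). Of all regions, the same libraries called 67.0% and 68.4% at 2 h and 81.6% and 71.5% at 6 h. Lost regions thus lay slightly below the whole set at 2 h and far below it at 6 h. Their shares did not overlap between the times, but the KO libraries at 6 h lay far apart. Without KO 6 h replicate 1 the difference was −39.0 points and without its partner, KO 6 h replicate 2, it was −16.1. With lost regions chosen without WT 2 h replicate 1 it was −18.0 points, and −12.9 when WT 2 h replicate 2 was dropped instead. The background coverage of these libraries was 3.345 and 2.172 reads, and in thinned lists the difference was −27.8 points. KO libraries at rest called 48.1% and 25.4% of the lost regions and 60.2% and 51.1% of all regions, where KO 0 h replicate 2 was the shallowest library of the series at 1.426 reads.

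**Figure D2:**
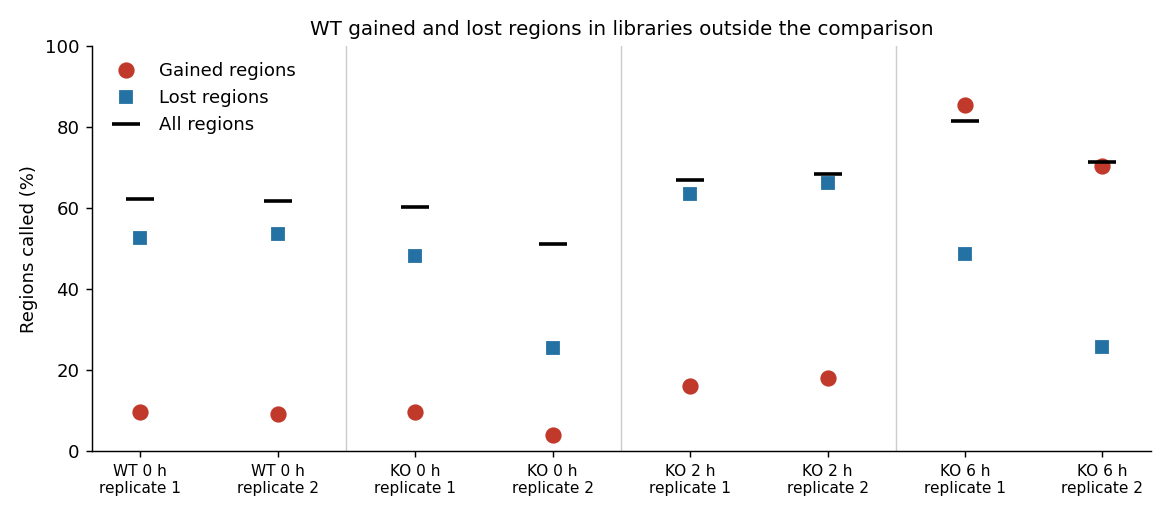
Share of the WT gained regions (circles), lost regions (squares) and all 102506 regions (short horizontal lines) called in each of the 8 libraries outside the comparison, on a linear axis from 0 to 100%. Gained regions lie between 4.1% and 18.2% in the libraries at 0 h and 2 h and at 85.5% and 70.4% in KO at 6 h, while lost regions fall from 63.4% and 66.2% in KO at 2 h to 48.7% and 25.8% at 6 h.

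Read by the same rule, KO gained 7839 of the 102506 regions (7.65%) and lost 1693 (1.65%). These KO lists leave out regions with no WT peak at 2 h or 6 h. Of the WT gained regions 3884 were also gained in KO, which was 47.1% of the WT and 49.5% of the KO list. Of the WT lost regions 460 were also lost in KO, which was 17.4% of the WT and 27.2% of the KO list. The reverse change was found at 29 gained regions (0.35%), which were lost in KO, and at 56 lost regions (2.12%), which were gained in KO. Both lay below the shares over all regions, 1.65% lost and 7.65% gained in KO.

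The share that recurred in KO followed peak strength. It was 24.9% in the weakest quintile of the gained regions and then 35.3%, 46.5%, 58.7% and 70.1% in the quintiles above it. Both KO libraries at 6 h called 34.1% of the weakest and 97.5% of the strongest quintile, while the share called in neither KO library at 2 h was between 70.3% and 77.8% in every quintile. Lost regions ran from 12.7% in the weakest to 23.1% in the strongest quintile. Both KO libraries at 2 h called 29.7% of the weakest and 81.6% of the strongest quintile of lost regions. The share called in neither KO library at 6 h ran the other way, from 54.0% to 31.2%. Strong lost regions were thus the more often still called in KO at 6 h. For comparison, 54.8% of all regions were called in both KO libraries at both times. Single KO libraries called 67.0% and 68.4% of all regions at 2 h and 81.6% and 71.5% at 6 h. The share of all regions called by both libraries of a time lies between 54.8% and the lower single share of that time. In calls by both libraries, the weakest quintile of each class thus lay below the whole set and the strongest above it.

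**Figure D3:**
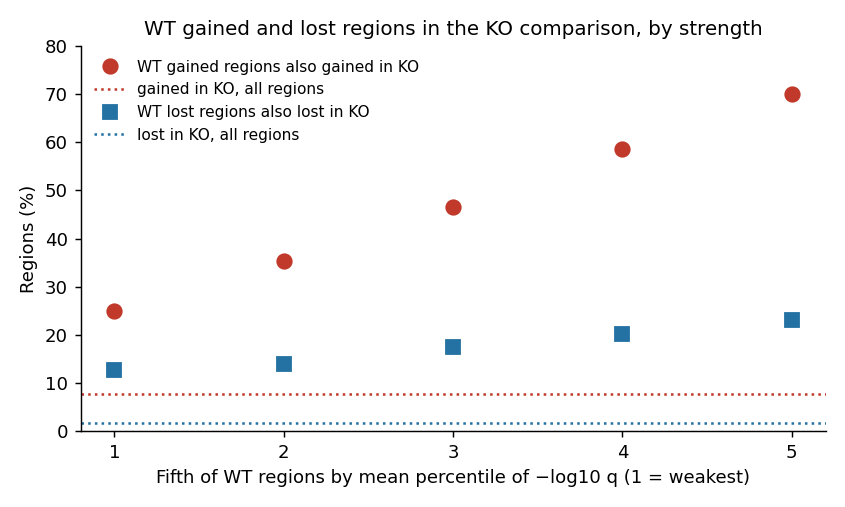
Share of the WT gained (circles) and lost (squares) regions that changed the same way in KO, by quintile (labelled 1 to 5, weakest first) of mean percentile of −log10 q in WT. Dotted lines are the shares of all regions gained (7.65%) or lost (1.65%) in KO. The gained series climbs from 24.9% to 70.1% and the lost series from 12.7% to 23.1%.

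Some gained regions lay close to each other. Another gained region was found within 10 kb of 17.0% of the gained regions, of 12.5% of the lost regions and of 12.5% of the regions called in all 4 libraries. The median distance from a gained region to the nearest other gained region was 49.2 kb. Lost regions lay nearer to regions called in all 4 libraries, at a median of 5.36 kb, than gained regions did, at 8.33 kb. These distances are centre to centre and are given as a description without a test. When the genome was cut into bins of 100 kb, 5894 bins held a gained region and 42 held 5 or more, up to 8. The bins named next were picked for these counts.

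The bin with 8 ran from 30200001 to 30300000 on chromosome 5, where 8 of 12 regions were gained and none of the 8 was called at rest in WT or KO. Its strongest member was chr5:30246487-30247270, with folds of 10.2 and 10.4, followed by chr5:30299275-30299987 with 8.3 and 8.78 and chr5:30206485-30207317 with 7.19 and 6.97. Of the 8, 6 changed the same way in KO. The weakest, chr5:30297188-30297520 with folds of 3.31 and 4.27, was called in 1 KO library at 6 h. The other one that missed the rule in KO was chr5:30276997-30277751, which 1 KO library already called at 2 h.

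A bin from 42300001 to 42400000 on chromosome 13 held 7 gained among 16 regions, and all 7 were called in KO by the same pattern, in neither library at 0 or 2 h and in both at 6 h. The strongest was chr13:42317461-42318231, with folds of 6.81 and 8.43, and chr13:42387399-42387840 had 5.18 and 4.66. A further bin on the same chromosome, 16000001 to 16100000, held 6 gained among 13 regions, led by chr13:16021445-16022203 with folds of 9.04 and 12.1, and 4 of these 6 changed likewise in KO. Chromosome 6 from 49400001 to 49500000 held 6 among 10 regions, 4 of which changed likewise in KO. On chromosome 7 from 81500001 to 81600000, 6 of 13 were gained, with chr7:81537604-81538412 at folds of 8.43 and 9.42, and 3 of the 6 changed likewise in KO.

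Of lost regions, which were fewer in all, a bin held at most 4. Another lost region lay within 10 kb of 6.33% of the lost regions, against 4.23% of the gained regions. For regions called in all 4 libraries the share was 5.71%, close to that of the lost regions. One bin with 4 was 116900001 to 117000000 on chromosome 11, where 18 regions included 1 gained one. The other was 166500001 to 166600000 on chromosome 2, where 23 regions included 3 gained ones. Of their lost regions, 0 of 4 on chromosome 11 and 1 of 4 on chromosome 2 changed the same way in KO. On chromosome 9 from 43400001 to 43500000, 3 of 4 regions were lost, of which 2 changed the same way in KO. The strongest of these 3, chr9:43470081-43470501, had folds of 7.36 and 6.22 at 2 h and was called in 1 WT library at rest.

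Some regions called at both times also changed in standing. The 55824 regions called in all 4 WT libraries were ranked by −log10 q within each library, so that the ranks, from 0 to 100, refer to one fixed set and do not depend on list length. Ranks of libraries of the same time correlated at 0.925 (2 h) and 0.914 (6 h), and those of different times at 0.81 to 0.816. These are descriptions over regions within libraries, and regions are not independent replicates. Both ranks at 6 h lay above both at 2 h for 14397 regions (25.8%), and both lay below for 16105 (28.8%). Of the 6 divisions of 4 libraries into 2 and 2, 1 puts both ranks at 6 h on top and 1 puts both below. Part of these regions would thus separate without any change, and no single region was tested. Without WT 2 h replicate 2 the rises numbered 21796, and with WT 6 h replicate 1 left out instead 21635, since 3 libraries separate by time more easily than 4.

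The largest rise was at chr2:22788962-22789781, from ranks of 7.75 and 6.84 at 2 h to 91.9 and 94.6 at 6 h. Its summits were 22 and 18 reads at 2 h and 102 and 111 reads at 6 h. KO ranks there went from 0.814 and 1.81 to 92.3 and 96.1. The next, chr12:32831326-32832151, moved from 0.77 and 14.6 to 91.2 and 95.3, and both WT libraries had called it at rest. Then came chr2:145091158-145091927, chr17:17591468-17592120 and chr18:50401866-50402723, with shifts of 82.2, 81.6 and 81.5 points, none of which WT libraries called at rest. All 5 rose in KO too, with no overlap between the times.

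The largest fall was at chr1:133568843-133569517, from ranks of 90.2 and 85.1 at 2 h to 7.09 and 23.4 at 6 h. Its summits were 104 and 78 reads at 2 h and 17 and 23 reads at 6 h. KO ranks there were 80.7 and 87.3 at 2 h and 51.9 and 31.2 at 6 h, a smaller fall without overlap. It was followed by chr9:63128833-63129335, from 74.6 and 77.2 to 12.1 and 1.72, and by chr2:22645804-22646473, from 79.1 and 72.6 to 7.59 and 11.1. The last of the 5 were chr14:41746534-41747087 and chr5:145696043-145696681, with shifts of −65.3 and −63.6 points. All 5 were called in both WT and both KO libraries at rest and fell in KO without overlap.

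Across the set, KO shifted the same way at most of these regions. Over the 51028 regions called in all 8 WT and KO libraries at 2 and 6 h, 26.0% rose and 29.1% fell in WT, and 25.0% rose and 28.9% fell in KO. Of the 13279 WT rises, 7479 (56.3%) also rose in KO, which was 58.6% of the KO rises, and 873 (6.57%) fell there. Of the 14859 WT falls, 8225 (55.4%) also fell in KO, which was 55.8% of the KO falls, and 745 (5.01%) rose. Larger WT shifts recurred more often. Of the 931 WT rises over 40 points 96.5% rose in KO and none fell, and of the 369 WT falls over 40 points 94.6% fell in KO and 1 rose.

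**Figure D4:**
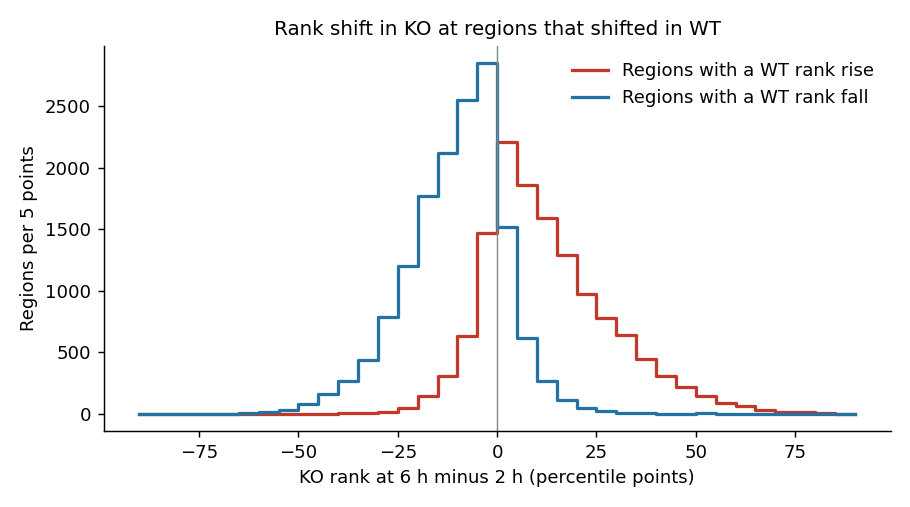
Shift in KO rank from 2 h to 6 h, in percentile points, at the 13279 regions whose rank rose (red) and the 14859 whose rank fell (blue) in WT, counted in steps of 5 points. The KO shift has a median of 9.88 points at the WT rises and −8.86 at the WT falls.

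Of these regions, those called in both WT libraries at rest ranked there near where they stood at 2 h. Among the 50029 regions called in all 6 WT libraries, 4346 rose by over 20 points without overlap, from median ranks of 23.9 and 24.1 at 2 h to 57.5 and 57.9 at 6 h. Their median ranks at 0 h were 27.0 and 26.6. The height of these ranks had no part in the choice, but a call in both libraries at 0 h did. Rises and falls at regions not called in both libraries at rest are thus left out. The 3975 that fell by over 20 points went from 54.5 and 54.2 to 24.3 and 24.2, and at 0 h they stood at 51.9 and 52.0. The ranks at rest lay slightly toward those at 6 h in both classes. Both ranks at 0 h lay below both at 2 h for 27.8% of the falls and 14.0% of the rises, against 18.1% of all 50029 regions. They lay above for 12.8% of the falls and 26.7% of the rises, against 19.5% of all. Values of 2 h entered both the choice of these regions and the comparison with rest, so no test was made.

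**Figure D5:**
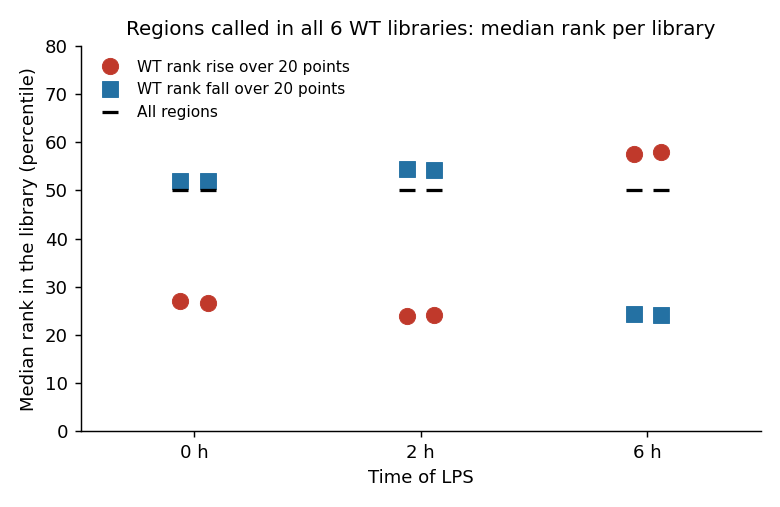
Median rank per library (1 point per library, 2 per time) over regions called in all 6 WT libraries, for the 4346 regions whose rank rose by over 20 points from 2 h to 6 h, the 3975 that fell by over 20 points, and all 50029. The rising class stands at 27.0 and 26.6 at 0 h and at 57.5 and 57.9 at 6 h, and the falling class at 51.9 and 52.0 and then at 24.3 and 24.2.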

How the data were processed

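ATAC-seq libraries of WT and lincRNA-EPS KO macrophages came as 1 peak list each. The submitters' processing notes name MACS2, Picard, Bowtie2 2.1.0 and the mm9 build. Tool settings, duplicate handling and any Tn5 offset correction: not given in the sources used here. Duplicates kept would raise peak values, and an uncorrected offset moves borders by a few bases. Each deposited peak carries a fold (ratio of summit to background), the −log10 of its p-value and of its q-value, and a score equal to 10 times −log10 q, rounded down. All 4 are the authors' values, used only for description and ranking within a list.

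Regions, percentiles, ranks and distances were computed with pandas 2.3.3, scipy 1.17.1 and numpy 2.4.6 under Python 3.11.15, and matplotlib 3.10.9 drew the figures. Positions are 1-based. Since the fold is (summit + 1)/(background + 1) and p a Poisson probability, whole-number summit coverage was recovered for 100% of peaks, matching p within 0.001 on the log10 scale. The lowest background in a list served as its relative depth, since total read numbers were not used here. Thinning drew each summit binomially to the lowest background and kept peaks with −log10 p of at least 4.28. The region counting and the recovery were tested on simulated data. Peak numbers and KO calls were compared by exact two-sided permutation over libraries, and the counts of gained and lost regions have no test.

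Named regions are the 10 gained and 10 lost with the highest mean percentile, then 3 more per class by call at rest and by the same calls in KO, and the 5 largest rank rises and falls. Bins of 100 kb were added after the data were examined. Members, rules and tests were chosen with earlier results of these data known. Alternatives were a stricter q, 100 bp overlap, regions from all 12 lists, thinned and equal lists, ranking by fold, and leaving out libraries. Gene names, sequence motifs and cell type markers were not used, for lack of an mm9 annotation here.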

Additional observations from a re-analysis of the deposited data

Results flagged for a closer look

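WT and KO changed in opposite directions at a small number of regions, where every library of one genotype moved one way and every library of the other the opposite way. Of these, 29 were gained in WT and lost in KO, and 56 were lost in WT and gained in KO. The 29 were 0.35% of the WT gained regions, while KO lost 1.65% of all regions. The 56 were 2.12% of the WT lost regions, while KO gained 7.65% of all regions. Both shares thus lay below those over all regions. The difference between genotypes was not tested for any of these regions. They were weak peaks, with a median percentile of −log10 q over the 4 calling libraries of 16.2 for the 29 and 16.3 for the 56, and highest values of 25.5 and 31.8. The strongest of the 29, at chr11:96824929-96825255, had folds of 4.25 and 4.79 in WT at 6 h and 4.19 and 3.44 in KO at 2 h. Among the 56, chr1:162644859-162645200 led, with folds of 6.44 and 8.73 in WT at 2 h and 5.52 and 4.1 in KO at 6 h, and it was called in all 4 libraries at rest.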

How the results depend on the processing

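No setting reversed a direction. The counts of gained and lost regions stayed within 1.5 times with a stricter q, 100 bp overlap, regions from all 12 lists and thinning, and moved with equal lists to 5361 gained and 4441 lost. The gained share of 75.8% was 73.1% with a −log10 q of at least 5, 76.9% in thinned lists and 54.7% in equal lists. Leaving out each library in turn gave 10241 to 15836 gained regions, 4569 to 7928 lost regions and gained shares of 56.4% to 77.6%. It gave 68.2% to 90.6% of gained regions called in 0 libraries at rest and 17.4% to 53.7% of lost regions called in every library at rest, against 82.8% of gained regions in thinned lists. Rank rises numbered 21050 to 21796 and rank falls 23043 to 24157 with 1 library left out, where 3 libraries separate by time more easily than 4. Ranking by fold gave 13182 rises and 15055 falls.

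The difference in peak number stayed between 6359 and 13072 peaks, and the KO difference between 44.3 and 68.4 points at gained and −39.0 and −12.9 points at lost regions, all with exact p of 0.333 to 0.667. With a replicate block (libraries paired by number) the differences were again 9715.5 peaks, 60.8 points and −27.5 points, and the exact p was 0.5 for each, the smallest possible with 2 pairs, so no call could change. The labels give same-numbered libraries no link beyond the number, and the correlation between their rank deviations was 0.0234. With 2 libraries per time this value cannot show whether they shared a mouse, culture or batch. The alternatives for the calls at rest, the block and the ranks without a library were added after the data were examined. Depth limits what absence from a list means, since weak members lay near the calling limit.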

Other observations

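The share of regions that changed varied by chromosome. Gained regions made up 6.2% of the 6448 regions of chromosome 11, the lowest share, and 9.73% of the 5765 regions of chromosome 3, the highest, with chromosomes 16 and 13 at 9.65% and 9.58% and the X chromosome at 9.51%. Lost regions made up 1.86% of the regions of chromosome 14 and 3.59% of those of chromosome 19, with chromosome 11 at 3.55%. Chromosome 11 thus held the fewest gained and nearly the most lost regions for its number. The order differed in part in KO. There the lowest gained share was 6.38% on chromosome 17, with chromosome 11 at 6.56%, and the highest was 8.73% on the X chromosome, with 5 further chromosomes above the 8.07% of chromosome 3. KO lost shares were 1.89% on chromosome 11 and 1.52% on chromosome 14, and chromosomes 5 and 19 had the highest, 2.12%. Chromosomes were not compared by a test.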
